A study of Mus musculus with 4 samples.

Results

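The G2/M and mitotic spindle genes, 42 of which were measured, were followed by ribosome footprints in mouse embryonic fibroblasts after knockdown of the initiation factor eIF1A. The genes came from a list of 53 names, chosen with earlier results of these data known. It spans mitotic entry, spindle, kinetochore, checkpoint, chromosome, nuclear envelope and cytokinesis proteins and leaves out cyclin B2. A gene entered where the deposited table, which held 4878 genes, had a row of its name. The other 11 were not analysed here, namely Cdk1, Cks2, G2e3, Kif11, Nuf2, Cenpf, Cenpa, Hjurp, Bub1, Top2a and Tmpo. Coding footprints fell on 16 of the 41 members with enough reads to test and rose on 2, where 18.7% of all genes tested fell and 10.6% rose. Spindle genes, 10 tested, gave 7 of the 16 falls, and cytokinesis genes, 5 tested, gave 4. With TMM factors, which remove the shift of the typical gene, these roles gave 5 and 1 of 11 falls, where 16.9% of all genes fell. The leader that precedes the coding sequence is called the 5' UTR. There, 10 of 27 tested members rose and 2 fell (44% and 2.81% of all genes tested). With TMM factors 4 members rose and 8 fell on the leader, where 20.9% of all genes rose and 21.1% fell. Smc4 and Tubb4b had the largest 5' UTR rises among them, from control means of only 4.67 and 2.30 normalized reads.

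Mouse embryonic fibroblasts are connective tissue cells grown from mouse embryos, and per the labels these were at passages 5-8. Ribosome profiling digests the RNA that ribosomes leave uncovered and sequences the protected fragments, called footprints. The control group was transfected with a negative control siRNA and the knockdown group with the eIF1A siRNA labelled X+18, by lipid transfection in both groups, with 2 libraries each. Both groups are of the same cell type, no genotype is given, and separate cultures for the 2 libraries of a group are not stated. The spread that the p-values rest on may thus be technical. Eif1ax and Eif1a, the mouse genes of eIF1A, were not analysed here, so the knockdown has no check in these libraries. Footprints reflect both how much mRNA is present and how well it is translated. In bulk lysates, fewer cells in G2 or mitosis and fewer footprints per cell cannot be told apart.

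Cells enter mitosis when cyclin-dependent kinase 1, held back through G2, becomes active together with the Polo and Aurora kinases. Chromosomes are then compacted by condensin, microtubules and motors build the spindle, and kinetochores attach the chromosomes to it. The spindle checkpoint holds back the anaphase-promoting complex until attachment is complete, and cytokinesis then divides the cell. Many of these genes are transcribed as a wave in G2, held silent earlier by the DREAM complex at a promoter element called the cell cycle genes homology region (CHR), and activated by B-Myb and FoxM1. eIF1A acts on the small subunit of the ribosome while it scans the leader and picks a start codon, and the series title names cell cycle genes as a subject of the study.

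The promoters of these genes shared a feature that the list did not use. RefSeq promoter windows (GRCm38.p6, 250 bases before to 50 after each annotated start) were found for 35 of the 42 genes. A gene counted if any of its windows matched, and these genes had 1.11 windows each on average, beside 1.29 for the genes of the table. In 27 of the 35 (77.1%), a window held the CHR letters TTTGAA or TTCGAA on either strand, against 16.5% of the 4003 genes of the table with a window and 21.7% of all 27025 genes. The CCAAT box, the letters CCAAT on either strand known as a site of the factor NF-Y, was in 26 of the 35 (74.3%), against 44.2% of the genes of the table. Both elements were in 22 (62.9%), against 8.74%. The other G2 and mitosis genes, a second list described further on, held the CHR letters in 43 of 105 cases (41%) and S phase genes in 5 of 37 (13.5%). Members whose coding reads fell had them in 11 of 14 cases (78.6%) and the other members in 16 of 21 (76.2%). A match describes the letters and is not a site, and matches of the 2 motifs may overlap. To show the element beside different outcomes, the following stretches of 30 bases lie before a RefSeq start of genes whose footprints are described below, and the capitals mark the CHR letters or their reverse complement, as read 5′ to 3′ on the strand of the gene.
Ncapd2 (chr6:125191692-125191721, minus strand): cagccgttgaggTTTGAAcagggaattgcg
Ckap2l (chr2:129297225-129297254, minus strand): ttattggcgaatTTCAAAgtcgcggaagcc
Ckap5 (chr2:91526705-91526734, plus strand): gcccacagctctTTCAAAcggaccaataaa
Bub1b (chr2:118598011-118598040, plus strand): tctctccctgggTTCGAAggcttgtcttag
Hmgb2 (chr8:57511801-57511830, plus strand): ggactctccgggTTTGAAtaatcctccaca
Tubb4b (chr2:25224883-25224912, minus strand): gcaaatcaatcaTTTGAAacacccaatgga
Ect2 (chr3:27153975-27154004, minus strand): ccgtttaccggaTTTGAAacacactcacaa
Cdc20 (chr4:118437344-118437373, minus strand): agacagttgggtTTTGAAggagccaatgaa

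The first of these letters lies 30 bases before that start in Ckap2l, 30 in Hmgb2, 45 in Ckap5, 18 in Cdc20, 114 in Ect2, 123 in Ncapd2, 188 in Bub1b and 198 in Tubb4b. The start used is not the outermost one in Ncapd2, Ect2, Ckap2l, Ckap5 and Bub1b. The stretches of Ncapd2 and Ect2 lie inside the full RefSeq span of the gene, and that of Ckap2l reaches into it. Only stretches wholly before a start are shown, and for Hmgb2 the nearer of 2 such matches is given. Bub1b, Ckap2l and Ect2 also held matches after a start, among them 40 bases after it in Bub1b and 41 in Ckap2l. In Ncapd2, Ckap2l, Ckap5 and Bub1b coding footprints fell, in Hmgb2 they rose, and in Tubb4b, Ect2 and Cdc20 they did not pass the test. The element was found beside each outcome.

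**Figure D1:**
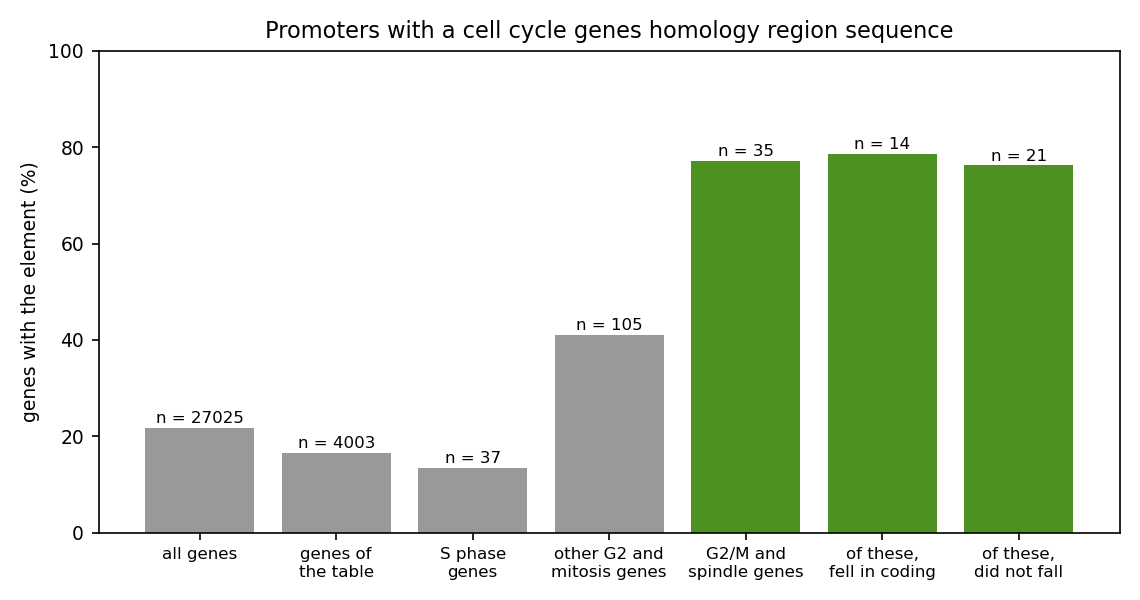
Share of genes with the CHR letters on either strand of a 300-base RefSeq promoter window, in percent, with the number of genes that have a window above each bar (grey, comparison sets; green, the G2/M and spindle genes). The green bars lie at 77.1%, 78.6% and 76.2%, and the genes of the table at 16.5%.

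The libraries differed in depth, from 617663 reads on the listed genes in control replicate 1 (547916 in replicate 2) to 280649 in knockdown replicate 2 (458191 in replicate 1). Values are normalized reads, in which 1 read is worth 0.717 and 0.864 in the controls and 1.02 and 1.60 in the knockdown libraries, and changes are knockdown over control on the log2(value + 1) scale. A call is a limma adjusted p under 0.05 over all genes tested. Genes were tested where the mean over all 4 libraries was at least 10 normalized reads. The median coding change of all 4619 genes tested was -0.16, and the median 5' UTR change of all 2101 was 1.09. A typical tested gene thus lost a little on the coding side and gained on the leader side. Without that filter the leader median was 0.67 over all 4878 genes, of which 1247 rose. In each library 25.5% to 31.2% of those genes held 1 leader read. Of 10 fibroblast markers, Vim and S100a4 were in the table, with a summed coding level of 821 and 623 in the controls and 1245 and 472 in the knockdown libraries. Markers of endothelial cells, leukocytes and muscle were not analysed here. For 3 of 4 pericyte markers the sum was 413 and 617 in the controls and 176 and 155 in the knockdown libraries. For 2 of 4 neural markers it was 159.8 and 207 against 92.6 and 68.6, and for Dsp, 1 of 6 epithelial markers, 109 and 146 against 82.4 and 71.8. Their part in the results was not tested.

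As a group, G2/M genes held a smaller share of the coding footprints in the knockdown libraries. They made up 2.02% and 2.23% of all coding reads of the table in the controls and 1.60% and 1.59% in the knockdown libraries, a share that no scaling between libraries can move. Their median log2 change was -0.75, which is 0.59 below the median of all genes, and 33 of 41 had a change below 0. Both knockdown libraries lay below both controls in 32 of 41 members, against 40.1% of all genes tested. The 16 falls are 39.0% of the members tested, where 18.7% of all genes fell, and the 2 rises are 4.88%, where 10.6% of all genes rose. With TMM factors, which bring the median gene close to 0, 11 members fell and 2 rose, while 16.9% of all genes fell and 17% rose. The S phase genes, 47 tested, gave a median of -0.24 with 7 falls and 1 rise from the same fit. Their share of coding reads went from 2.12% and 2.03% in the controls to 1.70% and 1.63% in the knockdown libraries. For the other G2 and mitosis genes the share went from 3.70% and 3.75% to 2.90% and 3.03%. A smaller share was thus not particular to the G2/M genes.

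**Figure D2:**
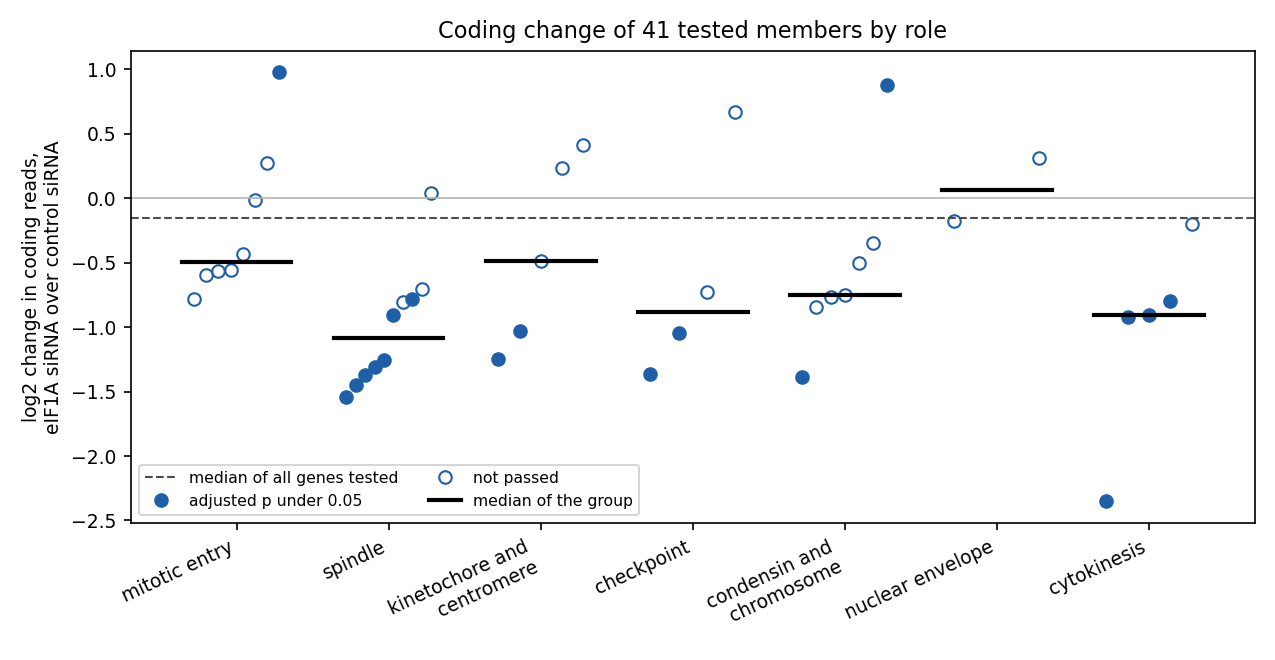
Change in coding reads on the log2 scale (knockdown over control, 2 libraries each) of the 41 tested members in 7 role groups, with filled dots where the limma threshold was passed, open dots elsewhere, a black line at each group's median and a dashed line at the median of all genes tested (-0.16). Spindle genes lie at a median of -1.08 and mitotic entry genes at -0.50.

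Among spindle genes falls were common, though differences between roles were not tested. Of 10 tested, 7 fell and none rose, with a median log2 change of -1.08. Tacc3, which binds clathrin and the microtubule polymerase chTOG to bundle spindle fibres (chromosome 5, 33658128 to 33672203), had 206 and 195 in the controls and 66.1 and 70.2 in the knockdown libraries (normalized coding reads). Its groups lay far apart and its replicates close together (log2 change -1.55 ± 0.29 (SE), limma adjusted p = 0.00121). Nusap1, which bundles microtubules near chromatin, had 174 and 138 in the controls and 82.4 and 38.3 in the knockdown libraries, without overlap of the groups (log2 change -1.45 ± 0.35 (SE), limma adjusted p = 0.00675). Ckap2l, a spindle and centrosome protein, had 111 and 149 in the controls and 55.9 and 43.1 in the knockdown libraries (log2 change -1.37 ± 0.31 (SE), limma adjusted p = 0.00441). Hmmr, which takes part in spindle assembly at the poles, had 118 and 101 in the controls and 58.99 and 31.9 in the knockdown libraries (log2 change -1.31 ± 0.34 (SE), limma adjusted p = 0.00933). Tpx2, the activator of Aurora A at spindle microtubules, had 295 and 321 in the controls and 137 and 119.7 in the knockdown libraries (log2 change -1.26 ± 0.28 (SE), limma adjusted p = 0.00402). In all of these the 4 libraries fell into separate groups, and the lower knockdown value was replicate 2 in each but Tacc3.

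Ckap5, the mouse chTOG microtubule polymerase, had 669 and 893 in the controls and 417 and 407 in the knockdown libraries (log2 change -0.91 ± 0.29 (SE), limma adjusted p = 0.0284). Dlgap5, which stabilises fibres at the kinetochore, had 186 and 185 in the controls and 111 and 104 in the knockdown libraries, with both pairs of replicates nearly equal (log2 change -0.78 ± 0.28 (SE), limma adjusted p = 0.047). These were the smallest falls called among spindle genes, and both calls ended with TMM factors, quantile normalization, edgeR and DESeq2. Kif2c, Ckap2 and Tubb4b did not pass, with log2 changes of -0.80, -0.71 and 0.04. Psrc1, with a mean under 10 normalized reads, was not tested and had 12.2 and 8.64 in the controls and 9.15 and 4.79 in the knockdown libraries.

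Cytokinesis genes fell in 4 of 5 cases, with a median of -0.90. Gas2l3, which links actin and microtubules at the constriction site (chromosome 10, 89408822 to 89443980), had the largest fall of any member, with means ± SD (n = 2 each) that went from 69.1 ± 8.58 to 15.4 ± 12.7 normalized coding reads. The libraries held 88 and 87 whole coding reads in the controls and 24 and 4 in the knockdown group (log2 change -2.35 ± 0.47 (SE), limma adjusted p = 0.00211). From the summed reads, the control level of Gas2l3 was 3.94 times that of the knockdown (95% interval 2.63 to 6.10, counting error only). Kif20b, a kinesin of the midbody, had 234 and 346 in the controls and 141 and 158 in the knockdown libraries (log2 change -0.92 ± 0.30 (SE), limma adjusted p = 0.028). Kif23, the motor of the centralspindlin complex, had 179 and 206 in the controls and 109 and 95.8 in the knockdown libraries (log2 change -0.90 ± 0.29 (SE), limma adjusted p = 0.0264). Anln, the scaffold anillin of the contractile ring, had 453 and 596 in the controls and 299 and 297 in the knockdown libraries (log2 change -0.80 ± 0.29 (SE), limma adjusted p = 0.0462). Groups were separate in each of these, and in Ect2, which activates RhoA at the midzone and had a change of -0.20 that did not pass. With TMM factors Gas2l3 stayed called and the calls of Anln, Kif20b and Kif23 ended.

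Checkpoint genes were mixed. Bub1b, the checkpoint component BubR1 that restrains Cdc20 (chromosome 2, 118598202 to 118641592), had 262 and 319.8 in the controls and 133 and 94.2 in the knockdown libraries, with both knockdown libraries well below both controls (log2 change -1.36 ± 0.30 (SE), limma adjusted p = 0.00335). Ttk, the kinase Mps1 at the top of the checkpoint, had 66.6 and 85.6 in the controls and 47.8 and 27.1 in the knockdown libraries (log2 change -1.05 ± 0.35 (SE), limma adjusted p = 0.0333). The call of Ttk ended with quantile normalization and DESeq2. Cdc20, the coactivator that the checkpoint blocks, had 203 and 178 in the controls and 144 and 90.98 in the knockdown libraries and did not pass (log2 change -0.72, limma adjusted p = 0.0858). Mad2l1, the Mad2 protein, went the other way in value, with 44.4 and 24.2 in the controls and 52.9 and 52.7 in the knockdown libraries, and did not pass either (log2 change 0.67, limma adjusted p = 0.169).

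Kinetochore and centromere genes gave 2 falls among 5. Cenpe, a kinesin that carries chromosomes to the equator, had 374 and 526 in the controls and 179 and 193 in the knockdown libraries (log2 change -1.25 ± 0.29 (SE), limma adjusted p = 0.00518). Ndc80, a subunit of the complex that grips microtubules, had 171 and 173 in the controls and 99.7 and 70.2 in the knockdown libraries, with control values close together (log2 change -1.03 ± 0.30 (SE), limma adjusted p = 0.0171). The call of Ndc80 ended with DESeq2. The chromosomal passenger proteins did not pass. Aurkb, their kinase, had a log2 change of -0.49, Birc5, which is survivin, of 0.41, and Cdca8, which is borealin, of 0.24. Birc5 had 78.3 and 43.1 normalized coding reads in the knockdown libraries and Cdca8 had 63.1 and 23.9, a wide spread in both.

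Condensin and chromosome genes included both a fall and a rise. Ncapd2, a regulatory subunit of condensin I (chromosome 6, 125168007 to 125192100), had 653 and 890.2 in the controls and 292 and 290.5 in the knockdown libraries (log2 change -1.39 ± 0.29 (SE), limma adjusted p = 0.00267). Its knockdown replicates were nearly identical. Smc4, an ATPase of the condensin core, had 714 and 1031 in the controls and 609 and 599 in the knockdown libraries and did not pass (log2 change -0.51, limma adjusted p = 0.215). Hmgb2, a DNA-bending chromatin protein, rose, with 267 and 214 in the controls and 568 and 342 in the knockdown libraries (log2 change 0.88 ± 0.31 (SE), limma adjusted p = 0.044). Its call ended when 1 read was subtracted from every value, and reads of Hmgb2 can be shared with related copies in the genome. The proliferation marker Mki67 (-0.77), the histone chaperone Anp32e (-0.85), the heterochromatin protein Cbx5 (-0.75) and Cdca2 (-0.35), which targets a phosphatase to chromosomes, had log2 changes below 0 that did not pass.

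Among 8 mitotic entry genes no fall passed the test, and Gtse1 rose. Gtse1, which is phosphorylated in G2 and restrains p53 and the depolymerase Kif2c, had 59.5 and 55.3 in the controls and 109.8 and 118 in the knockdown libraries, with the knockdown libraries above both controls (log2 change 0.98 ± 0.30 (SE), limma adjusted p = 0.0213). Plk1, the Polo kinase, had 147 and 129.6 in the controls and 126 and 68.6 in the knockdown libraries (log2 change -0.56, limma adjusted p = 0.203). Knockdown replicate 1 of Plk1 lay just under the controls and replicate 2 well under them. Aurka (-0.56), Nek2 (-0.78), the phosphatase Cdc25c (-0.59) and Cdca3 (-0.44) had changes below 0. Foxm1, the transcription factor of the G2 wave, had 30.8 and 47.5 in the controls and 37.6 and 38.3 in the knockdown libraries, which overlap, and a log2 change of -0.01. Cks1b, a small partner of the cyclin-dependent kinase, had 27.9 and 33.7 in the controls and 57.97 and 23.9 in the knockdown libraries. Over the 23 members that did not pass in any role, log2 changes ran from -0.85 to 0.67.

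The 2 nuclear envelope members did not pass. Rangap1, the activator of the Ran GTPase at nuclear pores and kinetochores, had 129.7 and 140.02 in the controls and 197 and 142 in the knockdown libraries, with 1 knockdown value just above the controls and the other well above (log2 change 0.31). Lbr, the lamin B receptor, had 174 and 142 in the controls and 137 and 140.5 in the knockdown libraries (log2 change -0.18).

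**Figure D3:**
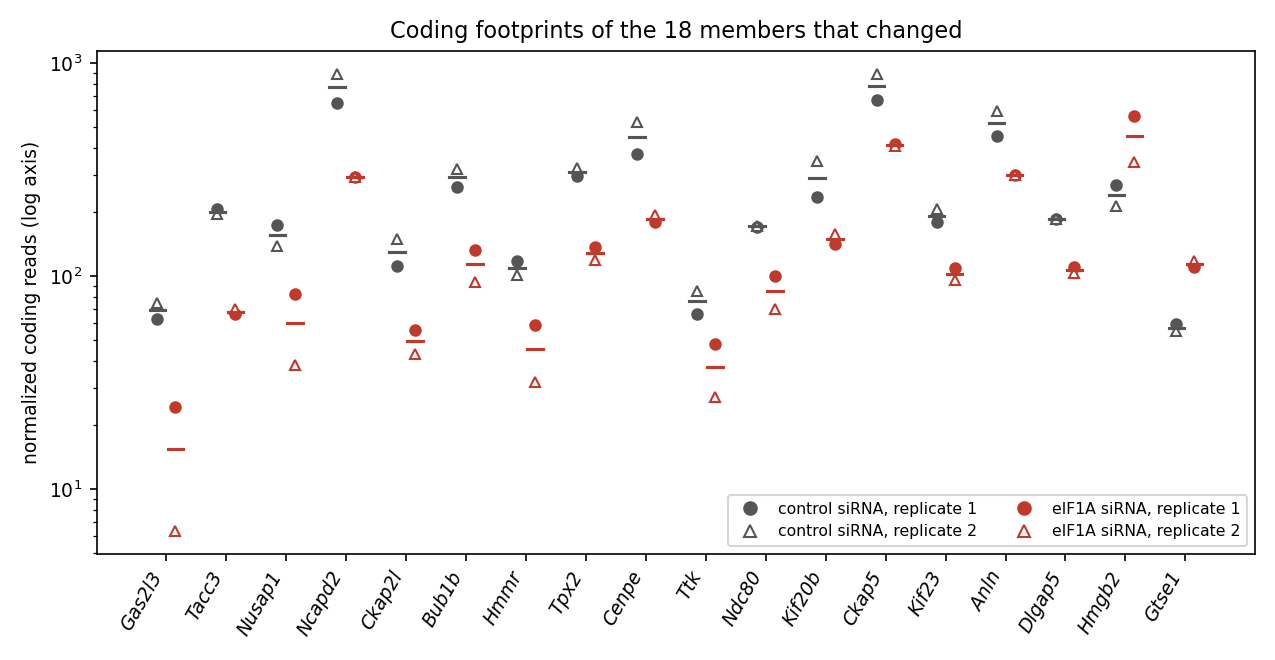
Normalized coding reads on a log axis for the 18 members that changed, ordered by log2 change, with filled circles for replicate 1, open triangles for replicate 2 and lines at the means of 2 libraries (grey, control siRNA; red, eIF1A siRNA). The groups are separate for each gene, from Gas2l3 at means of 69.1 and 15.4 to Gtse1 at 57.4 and 114.

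Across the 18 calls, all kept their sign in each of the 15 alternative settings. In the 11 settings that kept all 4 libraries, 10 stayed called throughout, namely Gas2l3, Tacc3, Nusap1, Ncapd2, Ckap2l, Bub1b, Hmmr, Tpx2, Cenpe and Gtse1. Leaving out a control library removed most calls: 3 were left without control replicate 1 (Cenpe, Ckap5 and Ncapd2) and 0 without control replicate 2, where 12 of 41 members had an unadjusted limma p under 0.05. Without knockdown replicate 1 or 2, 13 and 12 of the 18 stayed called.

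The other G2 and mitosis genes, 116 tested members of a list of 187 genes, gave 34 falls (29.3%) and 9 rises (7.76%) in coding reads, where 18.7% of all genes fell and 10.6% rose. Their median log2 change was -0.40. With TMM factors 27 fell (23.3%, beside 16.9% of all genes) and 13 rose (11.2%, beside 17%), and with quantile normalization 19 fell (16.4%) and 13 rose (11.2%), each beside 15% of all genes. Condensin, cohesin and other chromosome genes fell in 9 of 15 cases and none rose, with Top2b, a DNA topoisomerase, at -1.97, Ncaph at -1.53, Nipbl, the loader of cohesin, at -1.42 and Ncapg at -1.35. Spindle genes fell in 9 of 30 cases, with Stmn1, a tubulin-binding protein, at -2.01 and Aspm, a spindle pole protein, at -1.81, while the tubulin Tubb6 rose by 1.07. Cytokinesis genes fell in 4 of 13 cases and Arf6, a small GTPase, rose by 1.17. With TMM factors the falls were 7 chromosome (46.7%), 7 spindle (23.3%) and 4 cytokinesis genes (30.8%), beside 16.9% of all genes. With quantile normalization they were 6 (40%), 4 (13.3%) and 2 (15.4%), beside 15%, so the spindle and cytokinesis shares were then near that of all genes. Racgap1, the partner of Kif23 in centralspindlin, had 398 and 366 in the controls and 144 and 112 in the knockdown libraries (log2 change -1.58 ± 0.29 (SE), limma adjusted p = 0.00106), and Prc1, the midzone bundler, changed by -1.06.

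Nuclear envelope genes of that list gave 6 falls and 4 rises among 16, and 4 falls and 5 rises with TMM factors. Lmnb1, a B-type lamin, changed by -1.48 and Sun2, which spans the inner nuclear membrane, by -1.49. The GTPase Ran rose by 1.23 and its binding protein Ranbp1 by 1.65. Checkpoint and anaphase-promoting complex genes gave 2 falls among 15 (Anapc2 at -0.95 and Kntc1 at -0.85). That is 13.3%, near the 18.7% of all genes. Kinetochore genes gave 2 falls and 2 rises among 15, or 13.3% each way, also near the shares of all genes. Of the mitotic entry genes, cyclin B2 (Ccnb2) had 173 and 170.3 in the controls and 41.7 and 30.3 in the knockdown libraries and changed by -2.24, a fall close in size to that of Gas2l3, and cyclin A2 (Ccna2) changed by -1.01. Arpp19, which restrains the phosphatase that opposes cyclin-dependent kinase 1, rose by 1.65.

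On the 5' UTR the picture differed. G2/M genes carried 9.60% and 9.80% of their reads on the leader in the controls (95% exact binomial intervals 9.08% to 10.1% and 9.27% to 10.4%). The shares were 16.8% and 31.1% in the knockdown libraries (16.0% to 17.7% and 29.7% to 32.5%), where the intervals cover counting error only. Over all genes of the table the shares were 11.6% and 13.7% in the controls and 19.95% and 32.4% in the knockdown libraries. The shift of these genes thus lay beside a shift of the whole table, and in both sets knockdown replicate 2 was higher than replicate 1. Spindle genes had the lowest leader share in knockdown replicate 1, with 5.82% and 7.15% in the controls and 8.77% and 20.3% in the knockdown libraries.

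Of the 42 genes, 27 had a mean of at least 10 normalized reads on the leader. That mean was taken over all 4 libraries, so a gene low in 1 group could pass through the other. Of the 10 rises, Tubb4b, Smc4, Mad2l1, Nek2, Kif23 and Ndc80 had control means of 2.30, 4.67, 5.25, 6.10, 7.77 and 9.06. Those of Ect2, Tacc3, Rangap1 and Hmgb2 were above 10. Of the 2 falls, Gas2l3 had a knockdown mean of 6.53. The median log2 change of the 27 was 1.02, beside 1.09 for all genes tested, and 10 of 27 (37.0%) rose where 44% of all genes tested rose. In 16 members (59.3%) the knockdown values both exceeded the controls, against 67.4% of all genes tested. The falls, in Nusap1 and Gas2l3, are 7.41% of the members, where 2.81% of all genes fell. Once TMM factors removed the shift of the typical gene, 20.9% of all genes rose and 21.1% fell, and among the members 4 rose (Smc4, Tubb4b, Kif23 and Tacc3) and 8 fell (Gas2l3, Nusap1, Kif2c, Tpx2, Bub1b, Aurkb, Cbx5 and Anp32e). Of the 27 leader changes, 20 were above 0 under the deposited scaling and 12 with TMM factors.

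Smc4 had the largest leader rise (chromosome 3, 69004738 to 69034623). Its 5' UTR held 7 and 5 whole reads in the controls and 54 and 58 in the knockdown libraries, which are 5.02 and 4.32 in the controls and 54.9 and 92.6 in the knockdown libraries as normalized reads. Both knockdown values lay far above both controls (log2 change 3.68 ± 0.54 (SE), limma adjusted p = 9.09e-10). In all leader and ratio tests here, the SE and p rest on the variance typical of the read level, not on the gene's own replicates. From summed reads the ratio was 14.8, with a 95% counting interval of 8.15 to 29.5. Its coding reads did not pass, and the 5' UTR reads per 100 coding reads were 0.70 and 0.42 in the controls and 9.02 and 15.5 in the knockdown libraries. Tubb4b, a beta-tubulin of the spindle (chromosome 2, 25222158 to 25224702), held 4 and 2 whole leader reads in the controls and 22 and 35 in the knockdown libraries (log2 change 3.49 ± 0.64 (SE), limma adjusted p = 1.35e-06). The ratio of summed reads was 15.1, with an interval of 6.51 to 42.8. Less 1 read per value, in case the table was offset by 1, it was 21.8 (8.05 to 82.9). Per 100 coding reads, Tubb4b had 0.84 and 0.84 in the controls and 5.20 and 32.4 in the knockdown libraries. Both rises were called in all 15 alternative settings. These ratios use the deposited scaling, under which the typical leader rose as well. With TMM factors the log2 changes were smaller, 2.65 for Smc4 and 2.53 for Tubb4b. Reads of Tubb4b can be shared with other tubulin genes of near-identical sequence, and the RefSeq span of Smc4 also holds 2 microRNA genes, Mir15b and Mir16-2. Other protein-coding genes overlap Tubb4b (Fam166a), Nusap1 (Oip5), Ckap5 (F2) and Anln (9530077C05Rik), and no source used here says whether counting used the strand.

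Of the next leader rises, those of Tacc3, Kif23 and Ndc80 came with falling coding reads. Tacc3 had 15.05 and 11.2 in the controls and 48.8 and 67.04 in the knockdown libraries on the 5' UTR (log2 change 2.05 ± 0.52 (SE), limma adjusted p = 0.000475), the opposite direction of its coding reads. Kif23 had 4.30 and 11.2 in the controls and 23.4 and 44.7 in the knockdown libraries (log2 change 2.05 ± 0.56 (SE), limma adjusted p = 0.00131), again opposite to its coding reads. Ndc80 had 4.30 and 13.8 in the controls and 17.3 and 49.5 in the knockdown libraries (log2 change 1.78 ± 0.56 (SE), limma adjusted p = 0.00572), and its knockdown replicate 1 lay only a little above control replicate 2. Nek2, a centrosome kinase, had 7.88 and 4.32 in the controls and 12.2 and 27.1 in the knockdown libraries (log2 change 1.49 ± 0.62 (SE), limma adjusted p = 0.0386). Ect2 had 7.88 and 16.4 in the controls and 24.4 and 68.6 in the knockdown libraries (log2 change 1.76 ± 0.53 (SE), limma adjusted p = 0.00374). The coding reads of Nek2 and Ect2 did not pass. With TMM factors the calls of Ndc80, Nek2 and Ect2 ended, and with DESeq2 all 5 did.

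In other members the leader rose with the coding side or alone. Hmgb2 had 137 and 179.8 in the controls and 380.4 and 555 in the knockdown libraries (log2 change 1.55 ± 0.41 (SE), limma adjusted p = 0.00107), beside its coding rise. Mad2l1 had 3.58 and 6.91 in the controls and 12.2 and 31.9 in the knockdown libraries (log2 change 1.79 ± 0.63 (SE), limma adjusted p = 0.0134). Rangap1 had 52.3 and 54.5 in the controls and 89.5 and 169 in the knockdown libraries (log2 change 1.19 ± 0.46 (SE), limma adjusted p = 0.0251). The groups were separate in all 3, and all 3 calls ended with TMM factors. Gas2l3 fell on the leader as on the coding side, with 23.6 and 16.4 in the controls and 5.09 and 7.98 in the knockdown libraries (log2 change -1.49 ± 0.61 (SE), limma adjusted p = 0.0337). Nusap1 had 18.6 and 29.4 in the controls and 3.05 and 20.8 in the knockdown libraries (log2 change -1.38 ± 0.57 (SE), limma adjusted p = 0.0361), where knockdown replicate 2 lay between the controls, so its groups overlap. The calls of Gas2l3 and Nusap1 ended without a filter on low values. Anp32e had 145 and 143 in the controls and 99.7 and 185 in the knockdown libraries on the leader, and Cbx5 had 74.5 and 85.6 in the controls and 55.9 and 136 in the knockdown libraries, and neither passed under the deposited scaling. With TMM factors Cbx5 was called lower, at -0.98. Of the 12 leader calls 2 were left without control replicate 1 (Smc4 and Tubb4b), 5 without control replicate 2, 11 without knockdown replicate 1 and 7 without knockdown replicate 2.

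**Figure D4:**
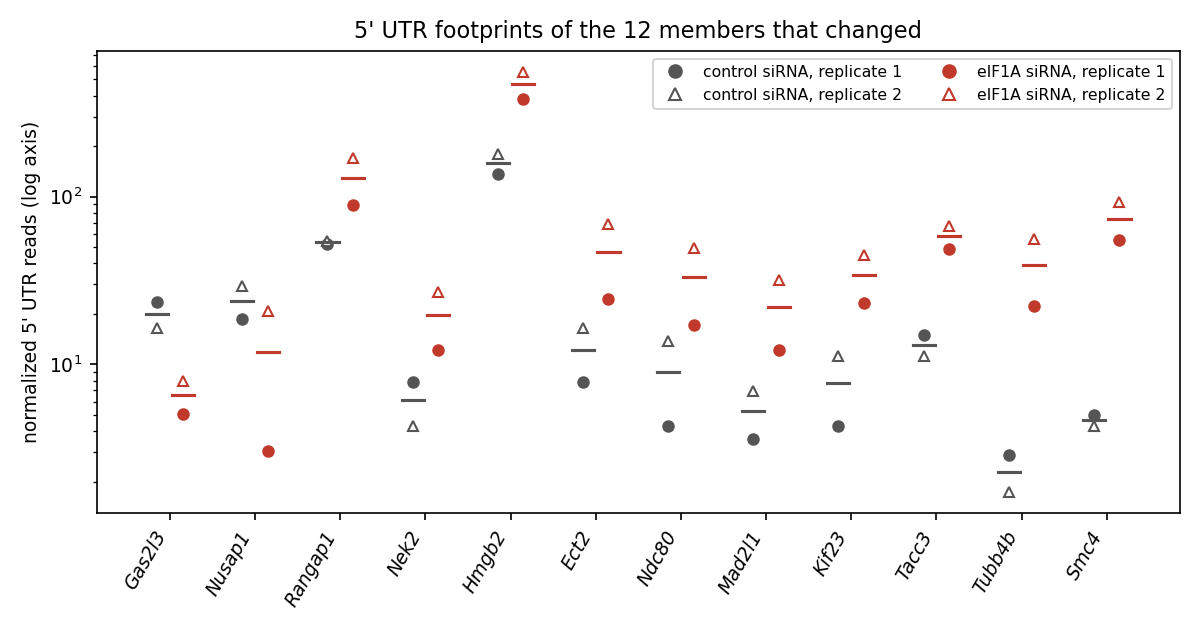
Normalized 5' UTR reads on a log axis for the 12 members that changed, ordered by log2 change, with filled circles for replicate 1, open triangles for replicate 2 and lines at the means of 2 libraries (grey, control siRNA; red, eIF1A siRNA). Smc4 lies at means of 4.67 and 73.7 and Gas2l3 at 20.03 and 6.53.

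The ratio of leader to coding reads was tested in 1 fit for the same 27 genes. Under the deposited scaling all 27 changes were above 0, with a median log2 change of 1.08, beside 1.23 for all 1907 genes tested. A read is worth the same in both regions of a library, so scaling between libraries hardly moves this ratio. TMM factors set for each region took out the shift of the typical gene (median 0.008 over all genes tested), and 11 of the 27 were then above 0. In 8 of 27 (29.6%) the ratio rose and in none did it fall by limma, where 20.5% of all genes rose, and 9 of 27 had an unadjusted p under 0.05. Groups were separate upwards in 16 of the 27, against 64% of all genes. The 8 were Smc4 (4.18), Tacc3 (3.60), Tubb4b (3.45), Kif23 (2.96), Ndc80 (2.81), Nek2 (2.27), Ect2 (1.96) and Anln (1.83), as log2 changes of the ratio. With TMM factors for each region, 2.78% of all genes rose in the ratio and 4 of the 8 stayed called (Smc4, Tacc3, Tubb4b and Kif23). Without either control library no member was called in the ratio, though 4 and 5 of 27 had an unadjusted limma p under 0.05 without control replicate 1 and 2. Without knockdown replicate 1 all 8 stayed called, and without knockdown replicate 2 the calls of Ect2 and Nek2 ended.

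Tacc3 had 7.29 and 5.75 in the controls and 73.8 and 95.5 in the knockdown libraries as leader reads per 100 coding reads (log2 change 3.60 ± 0.75 (SE), limma adjusted p = 0.000366). For Kif23 the same quantity was 2.40 and 5.46 in the controls and 21.5 and 46.7 in the knockdown libraries (log2 change 2.96 ± 0.76 (SE), limma adjusted p = 0.0028). Anln, with a leader change of 1.03 that did not pass, had 5.22 and 4.50 in the controls and 18.7 and 16.7 in the knockdown libraries (log2 change 1.83 ± 0.71 (SE), limma adjusted p = 0.049). In Gtse1 the leader had 6.45 and 12.1 in the controls and 11.2 and 31.9 in the knockdown libraries, which did not pass, and the ratio a log2 change of 0.04. In Nusap1 both regions fell and the ratio had a log2 change of 0.07. That value rested on both knockdown libraries, since it was 1.82 without replicate 1 and -1.69 without replicate 2, each past the limma threshold. Checkpoint genes had ratio changes of 1.08 to 1.55 that did not pass. Cytokinesis genes passed in 3 of 4 cases, where 20.5% of all genes tested rose. With TMM factors 1 of these 4 passed (2.78% of all genes), and with quantile normalization 0 (2.52%).

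**Figure D5:**
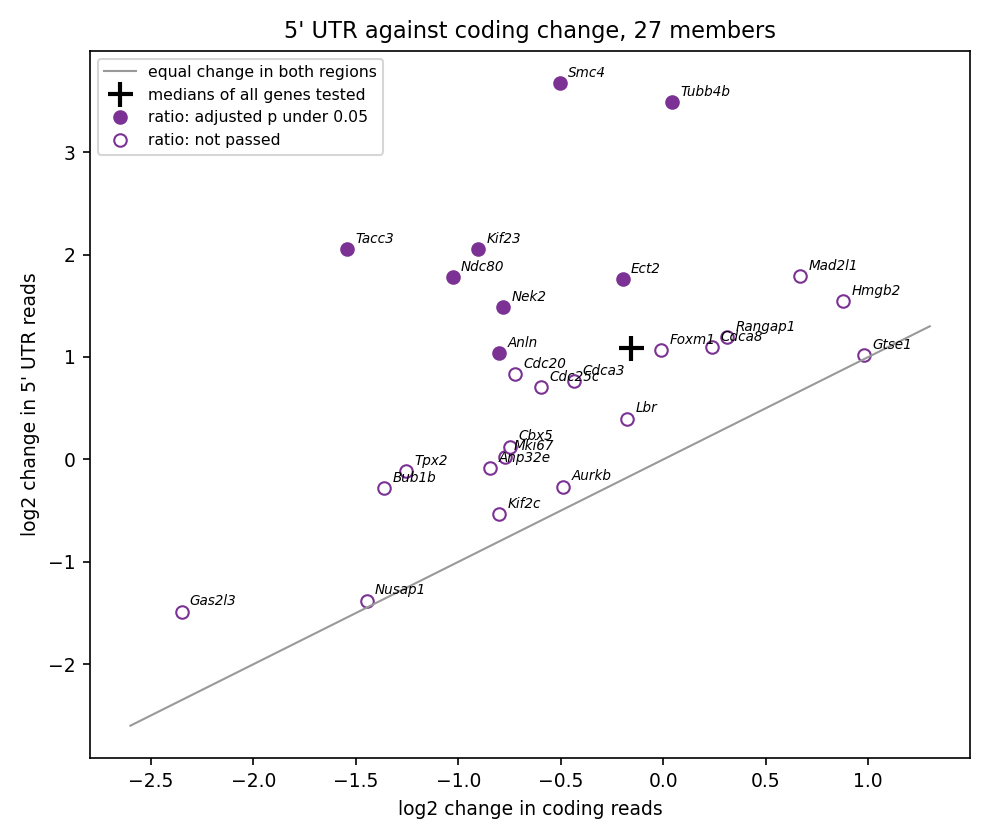
Change in 5' UTR reads against change in coding reads, both on the log2 scale (knockdown over control, 2 libraries each), for the 27 members tested in both regions, filled where the ratio passed the limma threshold, with a grey line of equal change and a cross at the medians of all genes tested (-0.16 and 1.09). Under the deposited scaling all 27 points lie above the line, with Smc4 at -0.51 and 3.68 and Nusap1 at -1.45 and -1.38. TMM factors set for each region take out the shift of the typical gene, and 11 ratio changes were then above 0.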

How the data were processed

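The deposited table gives normalized signal, a read number per gene for the 5' UTR and the coding sequence of 4 ribosome profiling libraries, per the file headers. The submitters' processing notes name cutadapt, Bowtie, TopHat2, HTSeq, DESeq2 and mm10, and the filters used are not given in the sources used here. Division by what 1 read is worth in a library gave whole reads for 100% of the values (tolerance 0.001 reads). The lowest value in each column was 1 read, which may stand for 0 or 1 or for 1 added read, and each gene had at least 26 reads over both regions in its deepest library. The read totals cover the listed genes only.

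Log2(value + 1) was tested with limma 3.58.1 in R 4.3.3 (empirical Bayes with trend, Benjamini-Hochberg over all genes with a mean of at least 10 in each region used). The mean was taken over all 4 libraries. For the 5' UTR and the ratio every gene received the variance of the trend. Alternatives were edgeR 4.0.16 and DESeq2 1.42.0 on the recovered reads, where edgeR called 1712 genes for coding reads, and other scalings, pseudocounts, filters, a replicate block and leaving out each library. Tested on simulated reads (200 changed genes), the limma procedure recovered 16.5% of 2-fold and 84.2% of 4-fold changes for coding reads (4565 genes), 16% and 97.6% for the 5' UTR (2084 genes) and 14.8% and 61.6% for the ratio (1876 genes). The simulated reads had the same dispersion for every gene, and genes not changed had no shift between groups. These libraries do have a shift on the leader, so the rates may not hold for them. Single values have no test of their own, because the smallest p of an exact permutation test (two-sided) is 0.333 for groups of 2. The members and lists were chosen with earlier results of these data known. The rule for named genes took each member called in any measure, the member with the highest mean coding value in each role, cyclin B2, and up to 4 called genes with the smallest adjusted p in each role of the second list, not all of which are printed. Other members were named after their values were seen. Gene names matched RefSeq (GRCm38.p6) directly for 4668 genes and by 1 older name for 204, and coordinates are from there.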

Additional observations from a re-analysis of the deposited data

How the results depend on the processing

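The coding falls numbered 9 with DESeq2 and 10 with quantile normalization, and 11 members changed with DESeq2. Of all 4619 genes tested, 498 fell and 988 changed with DESeq2, and 694 fell with quantile normalization. Subtracting 1 read left 1 coding rise. On the 5' UTR, rises numbered 3 with edgeR, 2 with DESeq2, 4 with TMM factors and 5 with quantile normalization, and falls numbered 8 in each of those 4. Of all 2101 genes tested there, 427 rose and 435 fell with edgeR, and 143 and 222 with DESeq2. With TMM factors 440 of them rose and 444 fell, and with quantile normalization 452 and 375. Falls of members on the 5' UTR numbered 1 with a pseudocount of 5 and 0 without a filter (2 at an unadjusted limma p under 0.05). With a mean of at least 20 they also numbered 0, but that filter left out both Gas2l3 and Nusap1, so it could not show whether their calls held. In the ratio 4 members changed with TMM factors, 3 with quantile normalization and 5 without a filter. Of all genes tested, 81 and 73 of 1907 and 432 of 4878 changed in those settings. Of the other G2 and mitosis genes, 27 changed and 19 fell with DESeq2, and 19 fell with quantile normalization. Each library left out in turn gave 0 to 20 members changed in coding reads, 0 to 19 falls and 0 to 5 rises. It gave 2 to 17 members changed on the 5' UTR, 2 to 16 rises and 0 to 2 falls, and 0 to 21 in the ratio. For the other list it gave 0 to 46 changed and 0 to 38 falls. The lowest counts came without a control library, and the cause was not tested. The sign of Cbx5 on the 5' UTR turned, with calls at -0.96 with edgeR, -0.997 with DESeq2, -0.98 with TMM factors and -0.88 with quantile normalization. The ratio of Nusap1 was 1.82 without knockdown replicate 1 and -1.69 without knockdown replicate 2.

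The replicate numbers are shared by the groups, but nothing in the labels says that they pair the libraries. Deviations of same-numbered libraries correlated across genes with r = 0.261 (coding), -0.061 (5' UTR) and 0.122 (ratio). With the replicate block 25 members changed in coding reads, 15 on the 5' UTR and 10 in the ratio, and no member called without the block lost its call. Depth limits knockdown replicate 2 most, with a median of 19 coding reads per gene.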
